A study of Mus musculus with 15 samples.

Results

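Genes of the respiratory chain beyond complex I were described across 15 single-colour Affymetrix arrays of mouse mammary epithelial cells. The set holds every measured gene whose symbol in the platform annotation marks it as a subunit of complex II (Sdha to Sdhd), complex III (Uqcr genes and Cyc1), complex IV (Cox4 to Cox8 genes) or complex V (Atp5 genes), together with Cycs, the gene of cytochrome c. It comprises 47 of the 12393 genes measured, of which 4 belong to complex II, 9 to complex III, 16 to complex IV and 17 to complex V. Female C57BL/6 mice had received AzaC, VPA or PBS by intraperitoneal injection, and the cells were purified from their glands by digestion. AzaC (5-azacytidine) inhibits DNA methylation and VPA (valproic acid) inhibits histone deacetylases, while PBS served as the control. At the stage labelled pregnant (day 21) there were 3 arrays with AzaC, 3 with VPA and 2 with PBS. At the stage labelled virgin, at 9 weeks, there were 3 arrays with AzaC, 2 with VPA and 2 with PBS. The labels give no dose or duration and do not state if replicates are different mice, so the p-values below describe only how these samples spread, which may be technical.

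These complexes carry electrons and make ATP in the inner mitochondrial membrane. Succinate dehydrogenase (complex II) passes electrons from the citric acid cycle to ubiquinone, the cytochrome bc1 complex (complex III) hands them to cytochrome c, and cytochrome c oxidase (complex IV) delivers them to oxygen. ATP synthase (complex V) uses the resulting proton gradient. Secretory mammary epithelium makes milk at a high cost in ATP, and its mitochondria expand around the onset of lactation. The mitochondrially encoded subunits of complexes III to V were not analysed here.

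Before the members are described, several features of the arrays bear on them. Arrays labelled virgin carried milk protein transcripts as high as those labelled pregnant. Csn2, which encodes beta-casein, lay between 13.69 and 14.03 on the log2 scale in the pregnant label, against 13.69 to 13.94 in the virgin label. The stage is therefore given below as the label only. Skeletal muscle transcripts were present on every array, with all 11 markers measured and none listed at 0, and the actin gene Acta1 reached between 11.82 and 14.20. The difference between the 3' and 5' control probe sets of Gapdh, a sign of RNA degradation when high, was 0.85 in AzaC replicate 1 and 0.82 in VPA replicate 3 labelled pregnant and 1.23 in PBS replicate 2 labelled virgin. It did not exceed 0.47 on the other arrays. All values below are log2 signals of the probe set with the highest mean, so a difference of 1 corresponds to a doubling, and levels of different genes are not compared.

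Per array, the median over the 47 genes was 10.83, 11.21 and 11.17 with AzaC and 11.22, 11.64 and 11.71 with VPA in the pregnant label, against 11.90 on each PBS array. In the virgin label it was 11.79, 11.67 and 11.84 with AzaC and 11.83 and 12.01 with VPA, against 11.34 and 11.96 with PBS. The 3 arrays with AzaC labelled pregnant lay below all others, and the PBS arrays labelled virgin spanned nearly the whole range of the remaining arrays. Of the 47 genes, 24 had their lowest value of all arrays in AzaC replicate 1 labelled pregnant and 15 in AzaC replicate 3. The highest value fell in PBS replicate 2 labelled virgin for 13 genes and in the VPA arrays labelled virgin for 10 and 11 genes. The standard deviation over all arrays ran from 0.16 for Cox6a1 to 0.79 for Cox8b. In a bulk sample, fewer cells of a type and less RNA per cell cannot be told apart.

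**Figure D1:**
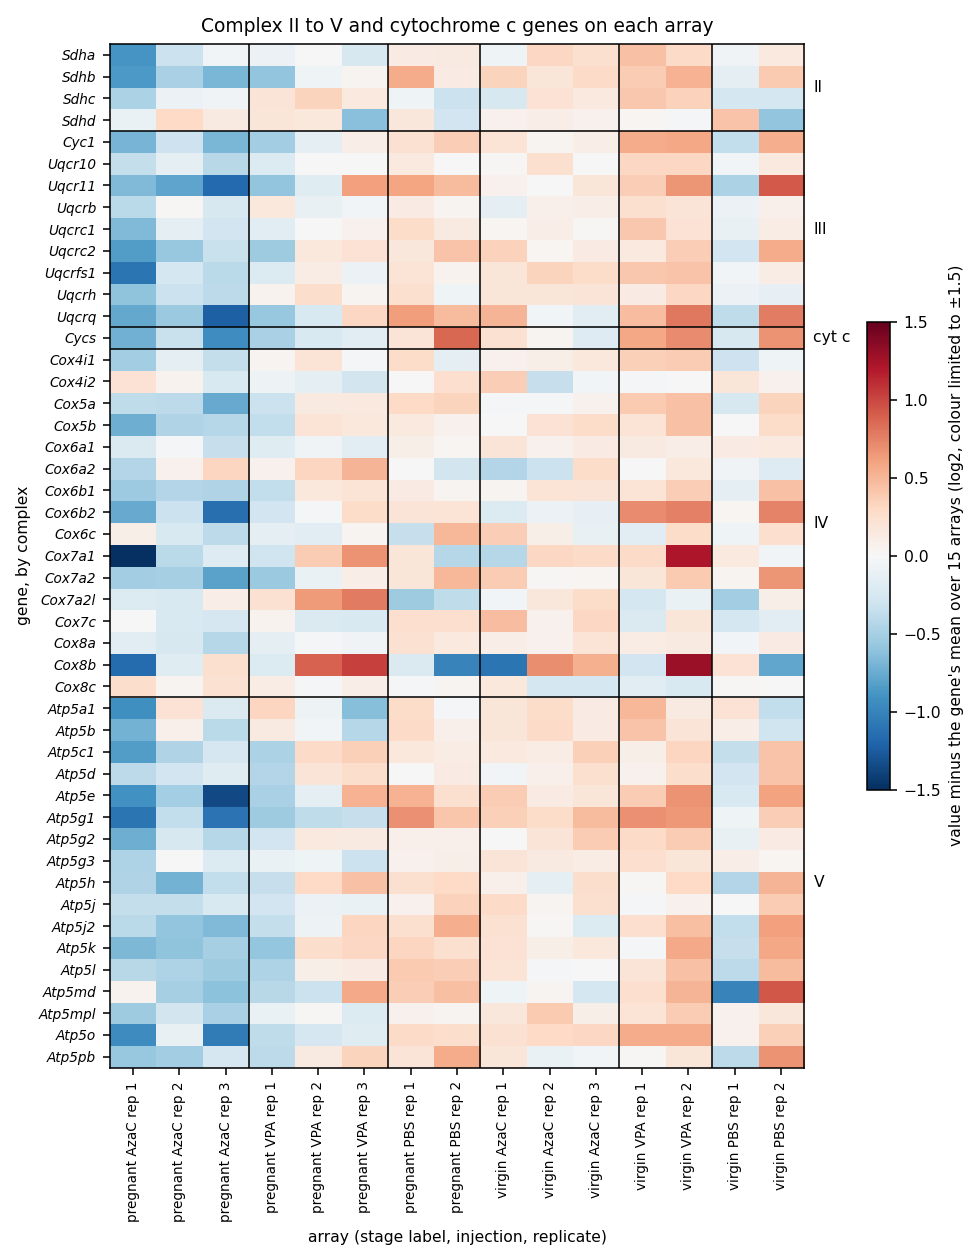
Value of each of the 47 genes (rows, by complex) on each of the 15 arrays (columns, by group), as the log2 difference from the gene's mean over all arrays. Blue cells (below the mean) gather in the 3 columns of AzaC labelled pregnant, where 24, 1 and 15 genes have their lowest array, and the muscle-type genes Cox7a1 and Cox8b vary within nearly every group.

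The comparison of AzaC with PBS in the pregnant label asks how inhibition of DNA methylation related to these transcripts in glands labelled pregnant. Of the 47 genes, 8 fell and none rose at an adjusted p under 0.05 by limma, where 3.81% of all genes fell and 3.76% rose. The fitted change was below 0 for 42 genes, or 89.4%, against 46.7% of all genes, and its median was -0.56 on the log2 scale, against 0.04 over all genes. For 36 genes every AzaC array lay below both PBS arrays, which held for 20.9% of all genes, and for 1 gene every AzaC array lay above them, which held for 23.5%. The 8 genes that fell are subunits of every complex and cytochrome c itself. This count rested on few arrays: it was 0 without PBS replicate 1 or PBS replicate 2 and 1 without AzaC replicate 1 or AzaC replicate 3 of the compared groups. Through the shared estimate of the spread it was also 2 without VPA replicate 2 labelled pregnant or either VPA array labelled virgin, 4 without AzaC replicate 2 or 3 labelled virgin, and 13 without either PBS array labelled virgin. Without the 3 arrays of highest Gapdh difference it was 7. The median change without any 1 array stayed between -0.68 and -0.49.

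Atp5g1, one of 3 genes that encode the same mature subunit of the proton-driven ring of ATP synthase, had the smallest p. Its signal was 10.39, 11.12 and 10.38 with AzaC, against 12.17 and 11.90 with PBS. All AzaC arrays lay below both PBS arrays, and the gene fell by 1.41 ± 0.23 (SE; adjusted p = 0.0115), to 0.378 of the PBS level. The other genes of complex V that fell were Atp5e and Atp5o. Atp5e, the epsilon subunit of the central stalk, had 10.22, 10.62 and 9.78 with AzaC, against 11.66 and 11.37 with PBS (change -1.31 ± 0.33, adjusted p = 0.0386). Its only probe set can match several transcripts by its suffix. Atp5o, the subunit that joins the peripheral stalk to the catalytic head, had 11.05, 11.88 and 10.95 with AzaC, against 12.28 and 12.26 with PBS (change -0.98 ± 0.24, adjusted p = 0.0335). In Atp5o the second AzaC array stood nearer to the PBS arrays than to the other AzaC arrays, without overlapping them. The catalytic beta subunit Atp5b changed by -0.53 ± 0.24 and did not pass the test (adjusted p = 0.197). All 17 genes of complex V had a change below 0, with a median of -0.76 and a range from -1.41 to -0.30.

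Cycs, the mobile carrier between complexes III and IV that also takes part in apoptosis when released from mitochondria, had 10.81, 11.19 and 10.60 with AzaC, against 11.72 and 12.39 with PBS. The groups did not overlap, although the PBS arrays differed from each other by more than the AzaC arrays did, and Cycs fell by 1.19 ± 0.29 (adjusted p = 0.0348). Its other probe sets changed by -1.31 and -1.25. In complex III the small subunit Uqcrq had 10.12, 10.33 and 9.66 with AzaC, against 11.51 and 11.36 with PBS (change -1.40 ± 0.36, adjusted p = 0.0411). Its probe set can match several transcripts by its suffix, and the gene's other 3 probe sets, with means over the arrays between 4.96 and 6.50, changed by -0.44, -1.06 and -0.32. The small subunit Uqcr11 changed by -1.41 ± 0.40 (adjusted p = 0.0529) and Cyc1, which encodes cytochrome c1, by -0.87 ± 0.26 (adjusted p = 0.0652), both short of the threshold. All 9 genes of complex III had a change below 0, with a median of -0.72, and in all 9 the AzaC arrays lay below both PBS arrays.

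By the chosen probe sets, complex II was split. Sdhb, its iron-sulfur subunit, had 10.59, 10.97 and 10.77 with AzaC, against 12.01 and 11.58 with PBS, and fell by 1.02 ± 0.23 (adjusted p = 0.0285). The groups were separated by a gap wider than the spread within either. The flavoprotein subunit Sdha changed by -0.54 ± 0.23 (adjusted p = 0.155). The membrane anchors Sdhc and Sdhd, with changes of -0.02 ± 0.19 and 0.17 ± 0.31, had overlapping groups (adjusted p = 0.974 and 0.778). The probe sets not chosen changed by -0.14 for Sdha, 0.05 for Sdhc and -0.685 for Sdhd, so the result for Sdhd depends on the probe set. The median over the 4 genes was -0.28.

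In complex IV 2 of 16 genes fell. Cox5a, a subunit on the matrix side, had 12.48, 12.47 and 12.10 with AzaC, against 13.16 and 13.20 with PBS (change -0.83 ± 0.21, adjusted p = 0.0372). Cox7a2, the widely expressed isoform of subunit VIIa, had 12.37, 12.40 and 12.09 with AzaC, against 13.08 and 13.39 with PBS (change -0.95 ± 0.25, adjusted p = 0.0402). In both genes the AzaC arrays stood apart from the PBS arrays. Cox4i1, the common isoform of the largest nuclear-encoded subunit, changed by -0.41 ± 0.17 (adjusted p = 0.159). The median over complex IV was -0.42, and 4 genes, Cox6a2, Cox7a2l, Cox8b and Cox8c, had changes above 0, from 0.12 to 0.35, with none past the threshold. Across the 86 probe sets of the members, 35 of the 39 that were not chosen to stand for their gene had the same sign of change as the chosen one.

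**Figure D2:**
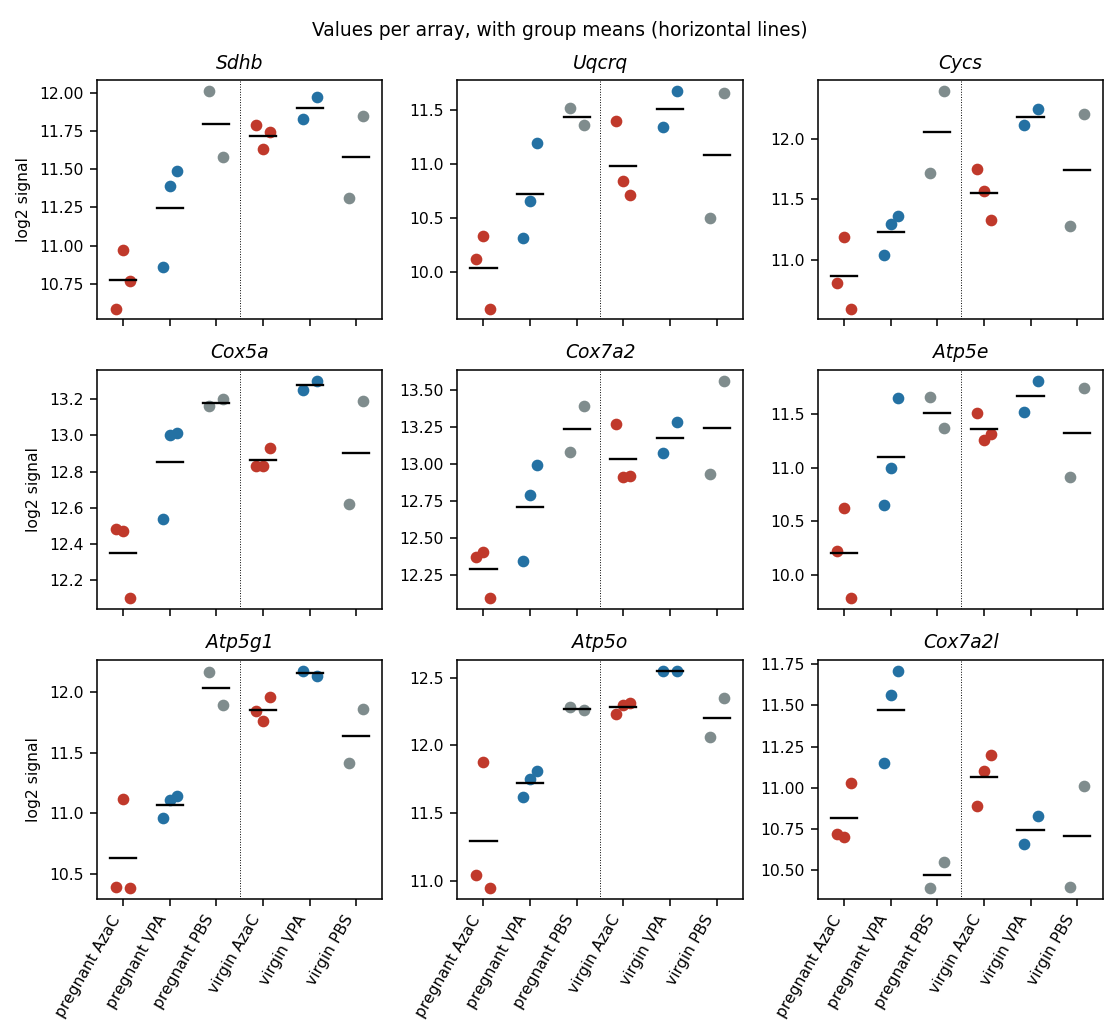
Log2 signal on each array (points) with group means (lines) for the 8 genes that fell with AzaC in the pregnant label and for Cox7a2l. The points of AzaC labelled pregnant lie below those of PBS labelled pregnant in the first 8 panels, while in the last panel the 3 VPA arrays labelled pregnant, at 11.15, 11.56 and 11.71, lie above every PBS array, the highest of which is at 11.01.

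VPA and AzaC were compared with the same PBS arrays, so their changes are not independent. With VPA in the pregnant label, 1 gene of the 47 fell and 1 rose by limma, where 2.34% of all genes fell and 3.64% rose. Each count is near the share of all genes, so the calls with VPA do not set the members apart. The median change was -0.24, against 0.06 over all genes, and 39 genes were below 0. For 19 genes every VPA array lay below both PBS arrays, against 17.6% of all genes, and for 4 genes above them, against 25.7%. Both calls were lost without either PBS array, without VPA replicate 2 or 3, or without the 3 arrays of highest Gapdh difference. Without VPA replicate 1, or either VPA array labelled virgin, 1 call was made.

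The gene that fell with VPA was Atp5g1, with 10.96, 11.11 and 11.14, against 12.17 and 11.90 with PBS. The 3 VPA arrays lay close together and below both PBS arrays, and the change was -0.97 ± 0.23 (adjusted p = 0.036). Cox7a2l rose. This gene encodes SCAF1, a relative of subunit VIIa. It had 11.15, 11.56 and 11.71 with VPA, against 10.39 and 10.55 with PBS, without overlap (change 1.00 ± 0.22, adjusted p = 0.0304). The chosen probe set can match several transcripts by its suffix, and the gene's other probe sets changed by 1.07 and 0.99. With AzaC, Cox7a2l had 10.72, 10.70 and 11.03, each above both PBS arrays, but its change of 0.35 ± 0.22 did not pass (adjusted p = 0.365). Cycs, at 11.04, 11.30 and 11.36 with VPA, lay below both PBS arrays and changed by -0.82 ± 0.29 without passing (adjusted p = 0.117). The anchor Sdhc changed by 0.42 ± 0.19 (adjusted p = 0.191), Sdhb by -0.55 ± 0.23 (adjusted p = 0.177), Uqcrq by -0.72 ± 0.36 (adjusted p = 0.249) and Cox4i1 by 0.01 ± 0.17 (adjusted p = 0.993). By complex, the median changes with VPA were -0.14 for II, -0.23 for III, -0.14 for IV and -0.30 for V.

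**Figure D3:**
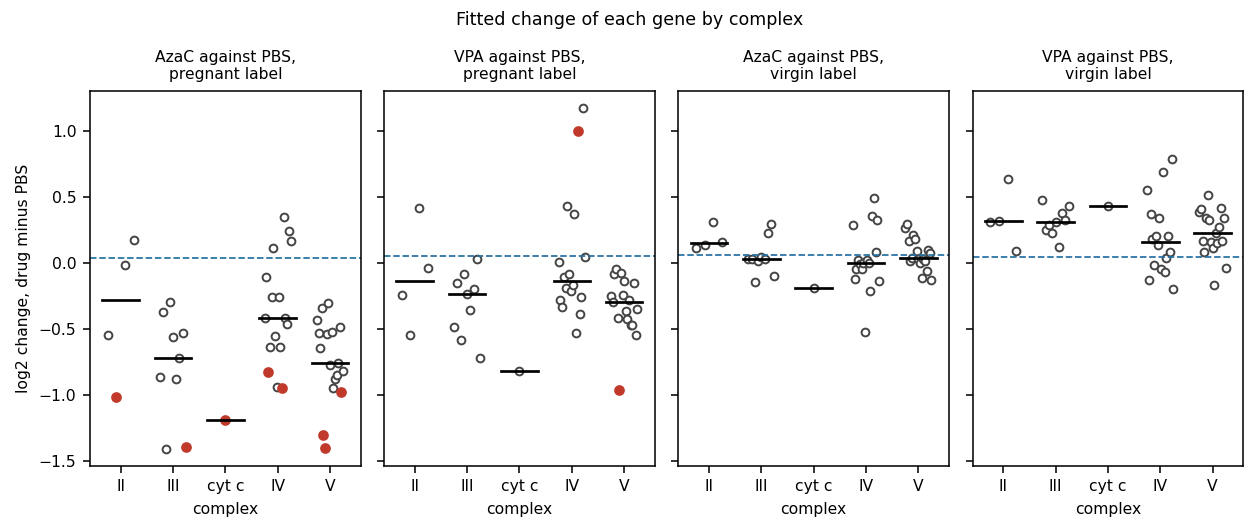
Fitted log2 change against PBS (vertical axis) of each gene (circles) by complex, one panel for each drug and stage label, with complex medians (bars) and the median of all genes (dashed line). Filled circles passed an adjusted p of 0.05: 8 with AzaC and 2 with VPA in the pregnant label, and none in the virgin label.

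Related members of a complex were set side by side within arrays, a comparison chosen after the values were seen. The difference Atp5g1 minus Atp5g2 averaged -0.39 ± 0.28 with AzaC (SD, n = 3) and -0.42 ± 0.16 with VPA (SD, n = 3), against 0.47 ± 0.18 with PBS (SD, n = 2). Its level depends on the 2 probe sets, and only its change between groups can be read. Against Atp5g3 the difference changed by -1.11 with AzaC and -0.73 with VPA. Cox7a2l minus Cox7a2 changed by 1.30 with AzaC and 1.53 with VPA. None of these 6 comparisons had overlapping groups. Each pair holds a gene already called in the same comparison, so this separation is not further evidence. A two-sided exact permutation test of 3 arrays against 2 cannot give a p under 0.20. All 6 gave this value (0.20 after adjustment over the 6). The 2 other ring genes taken alone did not pass the test, with changes of -0.54 ± 0.20 for Atp5g2 (adjusted p = 0.116) and -0.30 ± 0.16 for Atp5g3 (adjusted p = 0.256) under AzaC.

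The promoters of 5 genes past the threshold are shown because nuclear genes of these complexes are known to share binding sites for a few factors, among them NRF1, GABP of the ETS family, the estrogen-related receptors (ERR) and YY1. Each sequence runs 5′ to 3′ on the gene's strand, from 250 bases before to 50 bases after the start that the RefSeq table gives (build GRCm38.p6). Atp5g1 lies at chr11:96075582-96075881 (minus strand), Atp5e at chr2:174464052-174464351 (minus), Cycs at chr6:50566520-50566819 (minus), Sdhb at chr4:140961021-140961320 (plus) and Cox7a2l at chr17:83514284-83514583 (minus). The start used for Atp5g1 lies 63 bases inside the annotated gene, while those of the other 4 genes shown are at the gene's 5′ end. Capitals mark exact matches on either strand of GCATGCG (NRF1), CCGGAAG (GABP), AAGGTCA (ERR) or AAGATGG (YY1).
Atp5g1: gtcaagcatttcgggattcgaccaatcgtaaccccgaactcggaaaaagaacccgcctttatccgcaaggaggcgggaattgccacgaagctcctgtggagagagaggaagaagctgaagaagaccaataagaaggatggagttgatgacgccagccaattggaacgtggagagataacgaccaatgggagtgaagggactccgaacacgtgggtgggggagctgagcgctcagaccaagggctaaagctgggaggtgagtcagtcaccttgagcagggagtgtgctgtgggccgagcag
Cox7a2l: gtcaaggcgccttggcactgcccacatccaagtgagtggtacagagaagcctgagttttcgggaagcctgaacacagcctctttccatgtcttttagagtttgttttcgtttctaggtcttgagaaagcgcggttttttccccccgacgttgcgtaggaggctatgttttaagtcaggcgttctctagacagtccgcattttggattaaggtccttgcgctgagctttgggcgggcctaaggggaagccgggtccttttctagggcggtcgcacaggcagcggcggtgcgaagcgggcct
Cycs: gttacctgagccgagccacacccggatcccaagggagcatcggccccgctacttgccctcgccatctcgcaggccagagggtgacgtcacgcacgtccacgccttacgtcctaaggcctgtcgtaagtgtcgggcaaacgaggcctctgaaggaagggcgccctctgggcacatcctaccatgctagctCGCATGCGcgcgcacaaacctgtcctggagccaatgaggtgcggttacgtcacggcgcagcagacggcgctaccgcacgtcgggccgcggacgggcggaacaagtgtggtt
Sdhb: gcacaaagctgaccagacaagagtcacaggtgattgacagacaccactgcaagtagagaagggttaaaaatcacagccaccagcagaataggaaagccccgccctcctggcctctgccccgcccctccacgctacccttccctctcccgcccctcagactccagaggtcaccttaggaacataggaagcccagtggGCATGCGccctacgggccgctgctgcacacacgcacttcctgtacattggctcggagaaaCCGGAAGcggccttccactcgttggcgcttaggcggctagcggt
Atp5e: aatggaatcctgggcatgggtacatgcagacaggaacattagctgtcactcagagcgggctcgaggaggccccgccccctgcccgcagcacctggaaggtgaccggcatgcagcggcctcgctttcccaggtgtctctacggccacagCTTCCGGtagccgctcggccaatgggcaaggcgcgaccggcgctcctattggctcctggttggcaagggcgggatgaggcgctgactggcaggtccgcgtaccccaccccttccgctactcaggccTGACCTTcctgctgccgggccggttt

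Atp5g1 and Cox7a2l, the genes past the threshold with VPA, hold none of the 4 strings in these windows. The windows of Atp5o, Cox5a and Cox7a2, which fell with AzaC and are not shown, hold none either. The Cycs window holds the NRF1 string on both strands, overlapping in 1 run, Sdhb holds it once together with the GABP string, and Atp5e holds a GABP and an ERR string. Of the 38 promoter windows of 35 members, 29 are set on a start within 1 base of the gene's annotated 5′ end and 9 on another start, those of Atp5g1, Cox5a and Cox7a2 among them. Over the 38 windows, the NRF1 string was found in 9 (23.7%), against 5.33% of 12559 promoters of measured genes, and the GABP string in 13 (34.2%), against 14.0%. The ERR string was found in 5 (13.2%, against 3.61%) and the YY1 string in 4 (10.5%, against 6.56%). Among the 7 promoters of genes that fell with AzaC, 2 held the NRF1 string, 2 the GABP string, 1 the ERR string and none the YY1 string. A match is a description of the letters and not a measured binding site.

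In the virgin label no member passed the threshold with either drug. For AzaC against PBS no gene at all passed (0% in either direction, by limma), although 849 of 12393 genes, 1 of them a member, had an unadjusted p under 0.05. The median change of the members was 0.03, against 0.06 over all genes, and 15 of 47 were below 0. For 1 gene the AzaC arrays lay below both PBS arrays (6.8% of all genes) and for 7 above (11.5%). For VPA against PBS 0.00807% of all genes fell and 0% rose, with 851 genes, 2 of them members, at an unadjusted p under 0.05. The median of the members was 0.26, against 0.05 over all genes (0.045), and 7 of 47 were below 0. For 2 genes the VPA arrays lay below both PBS arrays (15% of all genes) and for 18 above (20.8%). The 2 members at an unadjusted p under 0.05 were Sdhc, 0.64 ± 0.20 (adjusted p = 0.592), and Cox4i1, 0.56 ± 0.19 (adjusted p = 0.607). The PBS arrays labelled virgin differed widely: without PBS replicate 1 the VPA median was 0.03 (0.025) and without PBS replicate 2 it was 0.44, and the AzaC median without PBS replicate 2 was 0.27.

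The change with AzaC in the pregnant label minus that in the virgin label had a median of -0.70 over the members and was below 0 for 43 of 47. No member passed this test, and no gene did (0% in either direction), with 22 of 47 members and 1587 of 12393 genes at an unadjusted p under 0.05. Atp5g1 had the smallest p, with a difference of -1.62 ± 0.33 (adjusted p = 0.125). For VPA the same difference had a median of -0.41, and no member passed, where 0.194% of all genes were lower and 0.121% higher, with 8 members and 2340 of all genes at an unadjusted p under 0.05. Atp5g1 differed by -1.49 ± 0.34 (adjusted p = 0.0744) and Cox7a2l by 0.96 ± 0.33 (adjusted p = 0.159). The effect of either drug on these genes was thus not shown to differ between the labels.

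Between the stage labels, 2 members differed with AzaC, 1 with VPA and none with PBS. With AzaC, Atp5g1 was lower in the pregnant label, at 10.39, 11.12 and 10.38, against 11.85, 11.76 and 11.96 in the virgin label (change -1.23 ± 0.21, adjusted p = 0.0293). Atp5mpl, a small membrane subunit of ATP synthase, had 11.41, 11.66 and 11.46 in the pregnant label, against 12.11, 12.33 and 12.03 in the virgin label (change -0.65 ± 0.14, adjusted p = 0.0479). These 2 genes were the ones past the threshold, where 1.11% of all genes fell and 0.121% rose. For 34 genes every pregnant-label array lay below every virgin-label array, against 14% of all genes, and for none above, against 8.81%. The median change was -0.54. With VPA, Atp5g1 alone was lower, at 10.96, 11.11 and 11.14, against 12.18 and 12.14 in the virgin label (change -1.09 ± 0.23, adjusted p = 0.0257), where 2.96% of all genes fell and 3.7% rose. For 25 genes every VPA array labelled pregnant lay below both labelled virgin, against 19.8% of all genes, and for 2 above them, against 26.2%. The median with VPA was -0.33, and Cox7a2l changed by 0.73 ± 0.22 without passing (adjusted p = 0.0738). With PBS no member passed, where 0% of all genes fell and 0.00807% rose, with 521 genes at an unadjusted p under 0.05, 1 of them a member, and the median was 0.10 (0.095). The AzaC count was 0 without AzaC replicate 1 or 3 or VPA replicate 2 labelled pregnant or without any AzaC or VPA array labelled virgin, 1 without VPA replicate 1 or either PBS array labelled pregnant, and 7 without AzaC replicate 2 labelled pregnant. The VPA count was 0 without any of the VPA arrays, 2 without AzaC replicate 2 labelled pregnant and 3 without either PBS array labelled virgin.

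Set directly against each other in the pregnant label, AzaC and VPA gave no gene past the threshold (0% in either direction by limma, 468 of all genes and 16 members at an unadjusted p under 0.05). The members had a median of -0.42 for AzaC minus VPA, against -0.03 over all genes, and 44 of 47 were below 0. For 15 of them every AzaC array lay below every VPA array, against 5.54% of all genes, and for none above, against 2.52%. Cox7a2l, at 10.72, 10.70 and 11.03 with AzaC, against 11.15, 11.56 and 11.71 with VPA, differed by -0.66 ± 0.20 (adjusted p = 1). In the virgin label the median was -0.15, with no gene past the threshold (813 at an unadjusted p under 0.05).

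Several members are isoforms made in particular tissues. Cox6a2, Cox7a1 and Cox8b are the subunit isoforms of striated muscle, and Cox7a1 and Cox8b also of brown fat. The standard deviation within groups was 0.81 for Cox8b, 0.55 for Cox7a1 and 0.29 for Cox6a2, against 0.79, 0.65 and 0.29 over all arrays. Cox8b had 8.25, 9.22 and 9.64 with AzaC and 9.20, 10.29 and 10.43 with VPA in the pregnant label, against 9.19 and 8.40 with PBS. Cox7a1 had 6.47, 7.74 and 7.95 with AzaC and 7.85, 8.53 and 8.82 with VPA, against 8.33 and 7.72 with PBS. The summed level of the 11 muscle markers, on the log2 scale, was 15.07 to 16.69 with AzaC and 16.34 to 16.50 with VPA, against 14.70 to 15.99 with PBS. In the virgin label it was 13.92 to 16.12 with AzaC and 15.40 to 16.05 with VPA, against 14.87 to 15.77 with PBS. None of the 3 isoform genes passed in any comparison with PBS, with adjusted p in the pregnant label of 0.829, 0.425 and 0.862 under AzaC and 0.342, 0.671 and 0.310 under VPA for Cox6a2, Cox7a1 and Cox8b in that order. Cox4i2, the lung isoform, lay between 5.71 and 6.42 and Cox6b2, a testis isoform, between 4.80 and 6.69, and both had a mean under 6.59, the value that leaves out the dimmest 40% of probe sets. In the pregnant label every AzaC array lay below both PBS arrays for Cox6b2. Its change with AzaC was -0.94 ± 0.26, just short of the threshold by limma (adjusted p = 0.0531). The testis isoform Cox8c lay between 9.93 and 10.46 over all arrays and changed by 0.17 ± 0.16 with AzaC (adjusted p = 0.564). It was not tested if its probe set reports this gene in these cells.

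**Figure D4:**
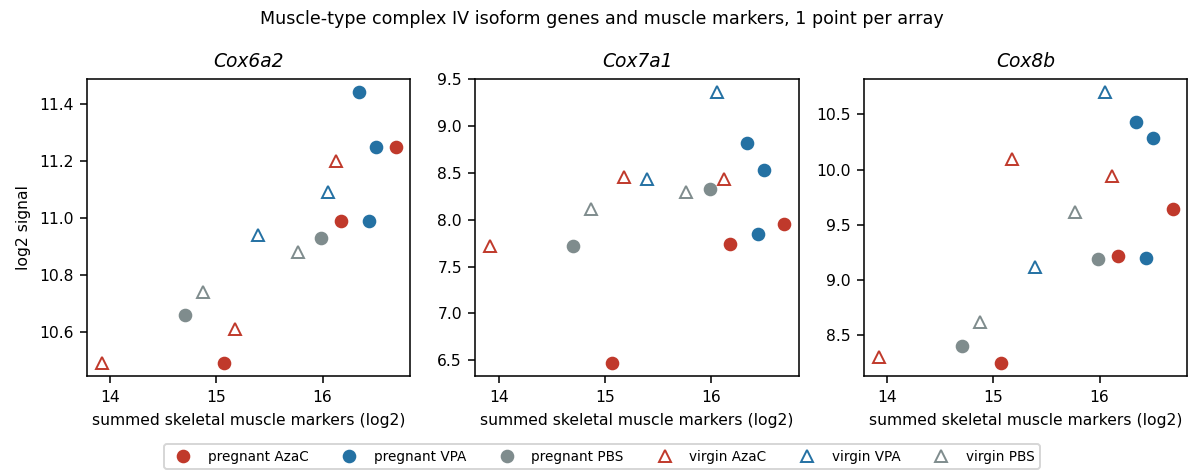
Log2 signal of the muscle-type isoform genes Cox6a2, Cox7a1 and Cox8b (vertical axes) against the summed level of 11 skeletal muscle markers on the log2 scale (horizontal axes), 1 point per array. The 4 arrays with the lowest marker sums, from 13.92 to 15.07, come from 4 groups and hold the 4 lowest values of Cox8b, from 8.25 to 8.62. They do not hold the 4 lowest of the other genes. PBS replicate 2 labelled virgin, 1 of these arrays, had 8.11 for Cox7a1, against 7.74 in AzaC replicate 2 labelled pregnant. It had 10.74 for Cox6a2, against 10.61 in AzaC replicate 2 labelled virgin.

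Some other cell type markers moved with the drugs in the pregnant label. The sums of the adipocyte, erythroid, and germ cell and testis lists overlapped PBS with both drugs, and none of their genes passed the threshold. Over all genes, 3.81% fell and 3.76% rose with AzaC, and 2.34% fell and 3.64% rose with VPA. The 10 luminal epithelial markers summed to 15.47 to 15.77 with AzaC and 15.51 to 15.80 with VPA, against 14.84 on each PBS array, and 1 of them rose with AzaC and 3 with VPA. The 4 measured brown adipocyte markers, a cell type rich in mitochondria, summed to 11.24 to 12.98 with AzaC and 12.37 to 12.57 with VPA, against 13.71 to 13.84 with PBS, and 1 of them fell with AzaC and none with VPA. None of either list was at 0 on any array, and the brown adipocyte sum was mostly Cidea, which secretory mammary cells are known to make too. The gene Ucp1, which defines that cell type, had 5.93, 6.28 and 9.15 with AzaC and 7.46, 9.91 and 7.86 with VPA, against 6.39 and 7.17 with PBS. The 7 fibroblast markers summed to 13.69 to 14.46 with AzaC and 13.86 to 14.86 with VPA, against 13.33 to 13.50 with PBS, and 1 of them rose with VPA. The 7 measured macrophage markers summed to 12.47 to 12.66 with AzaC and 12.61 to 12.80 with VPA, against 12.10 to 12.31 with PBS, and none passed the test. The sums of the basal, milk secretion, and T and B cell lists were also higher than with PBS on every array of both drugs, with no gene past the threshold. With AzaC the gap was small for the basal list, at 14.24 or more against at most 14.23 with PBS. The same held for the T and B cell list, at 8.411 or more against at most 8.408. The median change of the markers with AzaC was -0.03 in the basal and -0.09 in the T and B cell list. The 8 endothelial markers summed to 11.78 to 12.31 with AzaC and, overlapping PBS, 11.53 to 12.24 with VPA, against 10.90 to 11.60 with PBS, and 1 rose with each drug. The part of these cell types in the changes of the respiratory genes was not tested.

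Neighbouring mitochondrial pathways were described from lists chosen with earlier results of these data known. Over all genes in the pregnant label, 3.81% fell and 3.76% rose with AzaC, and 2.34% fell and 3.64% rose with VPA. With AzaC 5 of the 33 complex I genes fell and none rose, with a median of -0.68, against 0.04 over all genes. All 33 changes were below 0, against 46.7% of all genes. Among the 5 that fell were Ndufa9 (-0.74 ± 0.17, adjusted p = 0.0272), Ndufb9 (-1.05 ± 0.25, adjusted p = 0.0309) and Ndufv3 (-0.77 ± 0.18, adjusted p = 0.0314). Of 16 measured genes of pyruvate oxidation and the citric acid cycle, 3 fell with AzaC, namely Pdhb, Dlat and Dld, which encode subunits of the pyruvate dehydrogenase complex. With VPA, set against the same PBS arrays, 3 genes fell too: Pdhb, Dlat (-1.10 ± 0.26, adjusted p = 0.0353) and Dld (-0.80 ± 0.20, adjusted p = 0.0392). Pdhb had 11.05, 11.59 and 11.05 with AzaC and 11.41, 11.87 and 11.62 with VPA, against 12.95 and 12.98 with PBS. Its changes of -1.74 ± 0.23 with AzaC (adjusted p = 0.00933) and -1.33 ± 0.23 with VPA (adjusted p = 0.0134) were larger falls than that of any of the 47 genes in the same comparison. Of 28 measured assembly factors, 1 fell with each drug, a count near the share of all genes. It was Cox18, which inserts a complex IV subunit into the membrane (-1.39 ± 0.30, adjusted p = 0.0231 with AzaC, and -1.12 ± 0.30, adjusted p = 0.0498 with VPA).

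Among 15 measured carriers of the inner membrane, 1 fell and 1 rose with AzaC, and 1 rose with VPA, beside the shares of all genes given above. Slc25a5, an ADP/ATP exchanger, fell with AzaC, at 11.37, 11.75 and 11.33, against 12.66 and 12.55 with PBS (change -1.12 ± 0.17, adjusted p = 0.0101). With VPA it changed by -0.61 ± 0.17 (adjusted p = 0.0625). Ucp3, an uncoupling protein family member best known from muscle, rose with AzaC, at 10.60, 10.98 and 10.37, against 8.78 and 8.29 with PBS, by 2.12 ± 0.38 (adjusted p = 0.0135). With VPA, Ucp3 had 11.08, 10.85 and 11.36 and rose by 2.56 ± 0.38 (adjusted p = 0.0108). None of 22 measured regulators of mitochondrial biogenesis, such as Nrf1, Gabpa and Tfam, passed with either drug. The smallest p among them belonged to Hif1a with AzaC (-0.63 ± 0.19, adjusted p = 0.0722) and to Pprc1 with VPA (-0.85 ± 0.31, adjusted p = 0.124). In the virgin label no gene of these 5 lists passed with either drug.

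**Figure D5:**
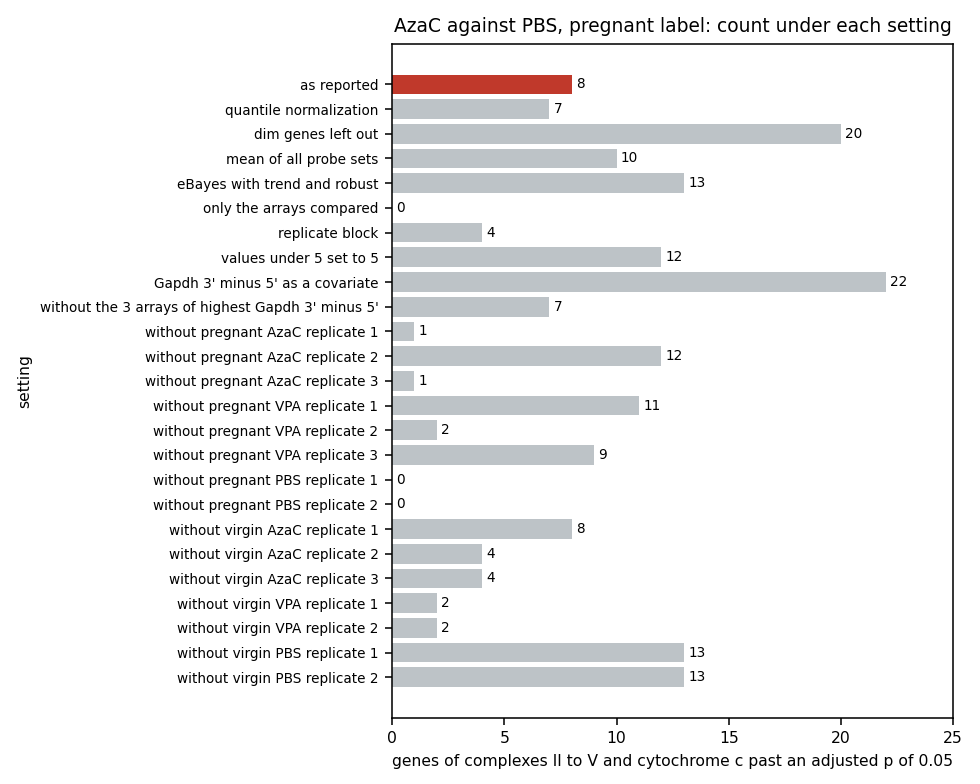
Number of the 47 genes past an adjusted p of 0.05 for AzaC against PBS in the pregnant label (horizontal axis, bars start at 0) under each processing setting and with each array left out in turn (rows). The count was 8 as reported, 22 with the Gapdh 3' minus 5' difference as a covariate, and 0 when only the 5 arrays compared were fitted or when either PBS array labelled pregnant was left out.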

How the data were processed

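Biotinylated cRNA from mammary epithelial cells was hybridised to 15 Affymetrix arrays, per the labels' protocols. The deposited values, from 0 to 14.48 over 22690 probe sets, were taken as log2 signals processed by the authors. The base of the logarithm, background correction and normalization are not given in the sources used here, so that fold values hold only if the base is 2. Array medians lay between 7.22 and 7.47, and 2.29 to 2.59% of each array's probe sets were listed at 0. The number of arrays limits the precision.

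Probe sets with a single symbol in the platform annotation (20380, with 691 carrying several and 1619 none) gave 12393 genes, and for each gene the brightest probe set on average was used. Of the members, 26 have several probe sets, and 10 chosen probe sets have a suffix for possible matches to several transcripts. A model with group means over the whole set of arrays was fitted in limma (version 3.58.1, under R 4.3.3; lmFit, then eBayes, with 9 residual and 2.31 prior degrees of freedom), two-sided, with Benjamini-Hochberg adjustment over all genes, in 11 comparisons. Single differences used exact permutation tests (scipy 1.17.1). The fit was also run on simulated data with independent noise for each gene, which does not measure false calls on these arrays.

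The members and lists were chosen with earlier results of these data known. Named genes are all members past the threshold, a fixed set of subunits (Sdha to Sdhd, Cycs, Cyc1, Uqcrq, Cox4i1, Atp5b and tissue isoforms), the extremes of a complex, and up to 4 members of smallest p in a related list. Not every value of the fixed set is printed for every comparison. Alternatives were quantile normalization, leaving out dim genes, the mean of all probe sets, other eBayes settings, only the arrays compared, a replicate block, a floor of 5, the Gapdh difference as a covariate or filter, and leaving out each array. RefSeq gave promoters for 35 members. No filter on low values was applied in the reported fit, so all 47 members were tested. Motif strings were chosen after the fit had been seen.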

Additional observations from a re-analysis of the deposited data

How the results depend on the processing

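The median change of the 47 genes with AzaC in the pregnant label ranged from -0.60 to -0.49 over 9 other settings, while the count of genes past the threshold, 8, moved. It was 20 without dim genes (fewer genes tested), 13 with trend and robust eBayes settings, 0 with only the arrays compared (fewer arrays), 4 with a replicate block and 22 with the Gapdh 3' minus 5' covariate, and without 1 array it ranged from 0 to 13. For VPA in the pregnant label, 2 calls became 1 with the mean of all probe sets, 0 with only the arrays compared, 1 with a replicate block and 0 without the 3 arrays of highest Gapdh difference (0 to 3 without 1 array). Pregnant against virgin label with AzaC, 2 calls, gave 0 with quantile normalization, 8 without dim genes, 7 with trend and robust settings, 0 with only the arrays compared, 1 with a replicate block, 6 with a floor of 5, 9 with the covariate and 0 without the 3 arrays (0 to 7 without 1 array). With VPA, 1 call gave 4 without dim genes, 3 with trend and robust settings, 0 with a replicate block, 4 with the covariate and 0 without the 3 arrays (0 to 3 without 1 array). The difference of the VPA effect between labels had 1 call without dim genes, with trend and robust settings and without the 3 arrays (0 to 1 without 1 array), and that of the AzaC effect had 0 to 2 without 1 array. Without the 3 arrays the medians became 0.27 for AzaC and 0.44 for VPA in the virgin label, -0.27 (-0.265) for AzaC against VPA in the pregnant label and -0.62 (-0.615) for the difference of the VPA effect. With quantile normalization the medians in the virgin label were -0.11 for AzaC and 0.14 for VPA, and the median of the difference of the AzaC effect was -0.50. Without 1 array, medians ranged from -0.07 to 0.27 for AzaC and from 0.03 (0.025) to 0.44 for VPA in the virgin label, from -0.09 (-0.085) to 0.21 between labels with PBS, from -0.81 (-0.805) to -0.46 for the difference of the AzaC effect and from -0.64 to -0.26 for that of VPA. The causes of the other shifts were not tested. Deviations of same-numbered arrays from their group means had correlations from -0.174 to 0.333, and the numbers were not used as pairs. With only 2 or 3 arrays in a group these correlations cannot exclude pairing. Of 1960 values of single genes under other settings, 1813 stayed on their side of the threshold, 128 lost a call and 19 gained one. Most of the 1960 values belong to genes without a reported call, which could not lose one, so these counts overstate the stability of the calls. With AzaC in the pregnant label, Uqcrq kept its call in 5 of 9 other settings and in 6 of 15 fits without 1 array. Atp5g1 kept its call in 8 of 9 and in 13 of 15. The sign differed from the reported one in 65 of the 1960 values, none of which passed the threshold as reported or under the other setting. Signals near the background limit Cox4i2 and Cox6b2.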

Other observations

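In the virgin label the median change over all genes was 0.06 with AzaC and 0.05 (0.045) with VPA. The 28 assembly factors had a median change of 0.02 with AzaC and 0.21 (0.205) with VPA, and the 22 regulators of mitochondrial biogenesis 0.15 with AzaC and 0.02 (0.015) with VPA, with none past the threshold by limma. In the pregnant label the regulators had medians of -0.13 with AzaC and -0.16 with VPA, against -0.24 and -0.13 for the assembly factors. Cs, which encodes citrate synthase, had 12.06, 12.09 and 11.51 with VPA in the pregnant label, against 12.78 and 12.67 with VPA in the virgin label. It was lower in the pregnant label by limma (change -0.84 ± 0.22, adjusted p = 0.0447).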
